A study of Rattus norvegicus with 11 samples.

Results

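The genes described here are 38 integrin, laminin and focal adhesion genes, taken by symbol from a table of 18507 genes, and all 38 were in the table. They comprise 16 integrin subunits, 8 laminin chains and 14 focal adhesion genes, of which 8 link integrins to actin and 6 are signalling adaptors. RNA was sequenced from bladder tissues of female Sprague-Dawley rats about 6 months old, and each sample carries 1 of 4 labels. Rats with partial bladder outlet obstruction (PBOO) had a suture tied around the bladder neck and urethra over a catheter, and normal rats had the abdominal incision alone. The groups were normal week 4 (n = 3), PBOO week 4 (n = 3), normal week 5 (n = 3) and PBOO week 5 (n = 2), the week being the time after surgery. The titles of the week 5 controls call them normal week 5, while their columns in the table are named as adult samples. They were taken as the week 5 controls by their titles. The column names of all week 4 samples end in Input, and those of the week 5 samples do not. The bladder was sequenced as whole tissue, so fewer cells of a type and less RNA per cell cannot be told apart in any value that follows.

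Integrins are receptors made of an alpha and a beta chain that hold cells to the extracellular matrix. Smooth muscle cells attach through beta 1 integrins to fibronectin and to muscle laminins, and their tails are coupled by talin, vinculin, filamin and alpha-actinin to the actin filaments that carry contractile force. Basal urothelial cells instead attach through integrin alpha 6 beta 4 to a laminin that contains the Lama3 and Lamb3 chains, in hemidesmosomes coupled to keratin filaments.

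Levels are given in FPKM, a count of sequenced fragments scaled for gene length and library size. The table holds no read counts, so the depth of each sample is unknown. The FPKM values summed to between 424961 and 564343 per sample. In all, 4871 genes were listed at 0 in every week 4 sample and 403 in every week 5 sample, and a 0 is reported only as the listed value. Among those listed at 0 throughout week 4 were 8 of the genes described here (Itga2, Itga3, Itga9, Itgav, Lama2, Lama3, Lamb1 and Tln2), so PBOO and normal were compared within each week. Normal week 4 replicate 1 stood apart from the other 2 normal samples of that week. Its summed level of 8 fibroblast markers was 1093 FPKM against 4017 and 4085, and it held the highest normal value for 20 of the 30 genes above 0. Urothelial and smooth muscle markers were present in all 11 samples (Upk3b and Krt7 being listed at 0 at week 4), although the summed level of 10 smooth muscle markers was 19.0-fold lower in PBOO than in normal bladders at week 5. The labels number the replicates without saying that each is a separate rat, and p-values measure only the spread between these samples.

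At week 4 most of the genes tested were upregulated in PBOO bladder tissues, and at week 5 most of those tested were downregulated. A gene is said to have risen or fallen where the unadjusted p of limma, a linear model fitted to log2(FPKM + 0.1) of all genes, was under 0.05 in that week. At week 4, 19 of the 30 genes tested rose and 3 fell, against 5.76% of 11320 tested genes that rose and 26.2% that fell. After adjustment over all genes tested at week 4, 5 of the 19 remained under 0.05 (Itga1, Itga8, Flnc, Ilk and Parva), against 0.336% of all genes. None of the 5 stayed under 0.05 after median-ratio scaling (adjusted p 0.0532 to 0.0598), without the filter on low values (0.0528 to 0.0586) or without the trend (0.0825 to 0.086). The same held with normal replicate 2 or 3 or PBOO replicate 2 or 3 left out (0.0775 to 0.216), and without normal replicate 1 only 1 of the 5 stayed under it. At week 5, 22 of the 36 genes tested fell and 8 rose, against 18.8% and 24.6% of 13685 tested genes, so the share that rose (22.2%) was near that of all genes. All 22 falls and 7 of the 8 rises were under 0.05 after adjustment, against 14.5% and 15.5% of all genes. A change of at least 2-fold that also passed was seen upwards in 7 and downwards in 0 of 30 genes at week 4, against 2.46% and 2.45% of all genes, and in 2 and 21 of 36 at week 5, against 9.82% and 12.6%. All PBOO samples lay above all normal samples for 19 genes and below them for 2 at week 4, against 6.63% and 34.9% of all genes tested, and for 9 and 22 at week 5, against 35.3% and 25%. The median log2 fold change of the genes was 0.66 at week 4 and -1.31 at week 5, beside -0.25 and 0.12 over all genes tested. Rescaling the samples by median ratios brought the week 4 median of all genes to -0.01 and gave 22 rises and 0 falls among the 30, with 11.7% of all genes rising and 9.01% falling.

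Of the 38 genes, 15 rose at week 4 and fell at week 5, namely Itga1, Itga5, Itgb1, Lama4, Lamb2, Lamc1, Vcl, Tln1, Flna, Flnc, Zyx, Ilk, Parva, Actn1 and Tns1. Another 3 went the other way, falling at week 4 and rising at week 5, and these were Itga6, Itgb4 and Lamb3. The share of all genes with either pair of calls was not computed, so these counts have no background beside them. Lama5 rose in both weeks, and Itgb6, Actn4 and Vasp passed the test in neither.

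Among the muscle-type integrins, Itga5, the fibronectin receptor subunit, changed in both weeks. At week 4 its level was 72.4, 53.2 and 45.5 FPKM in normal bladders and 184, 201 and 463 FPKM in PBOO bladders. All 3 PBOO samples lay above all normal samples, with PBOO replicate 3 the highest, and the log2 fold change was 2.20 ± 0.36 (SE, adjusted p = 0.0521). At week 5 the level was 38.3, 52.9 and 44.1 FPKM in normal and 11.8 and 14.7 FPKM in PBOO bladders, so the order of the groups was turned round without overlap, with a log2 fold change of -1.76 ± 0.18 (SE, adjusted p = 0.00217).

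Itga7 is the laminin-binding subunit of muscle. At week 4 it measured 35.2, 19.1 and 19.7 FPKM in normal and 31.8, 32.7 and 46.2 FPKM in PBOO bladders. The groups overlapped through normal replicate 1, and the log2 difference of 0.62 ± 0.27 (SE, adjusted p = 0.162) did not pass the test, whereas without that sample it was 0.91 (adjusted p = 0.0993) and passed at the unadjusted threshold. At week 5 Itga7 fell from 38.2, 30.3 and 46.9 FPKM to 3.94 and 2.73 FPKM, with every PBOO sample far below the normal ones. This was a ratio of means of 11.5 and a log2 fold change of -3.49 ± 0.25 (SE, adjusted p = 0.000638).

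Itga8, a subunit that binds fibronectin and nephronectin and is prominent in smooth muscle, measured 1.82, 3.02 and 2.46 FPKM in normal and 15.9, 9.02 and 11 FPKM in PBOO bladders at week 4. The groups did not overlap, and the log2 fold change of 2.24 ± 0.27 (SE, adjusted p = 0.0483) was the largest of the 30 genes tested in that week. At week 5 Itga8 was at 0.317, 0.563 and 0.362 FPKM in normal and 0.263 and 0.0907 FPKM in PBOO bladders. These values are under the minimum mean of 0.5 FPKM, so Itga8 was not tested at week 5.

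**Figure D1:**
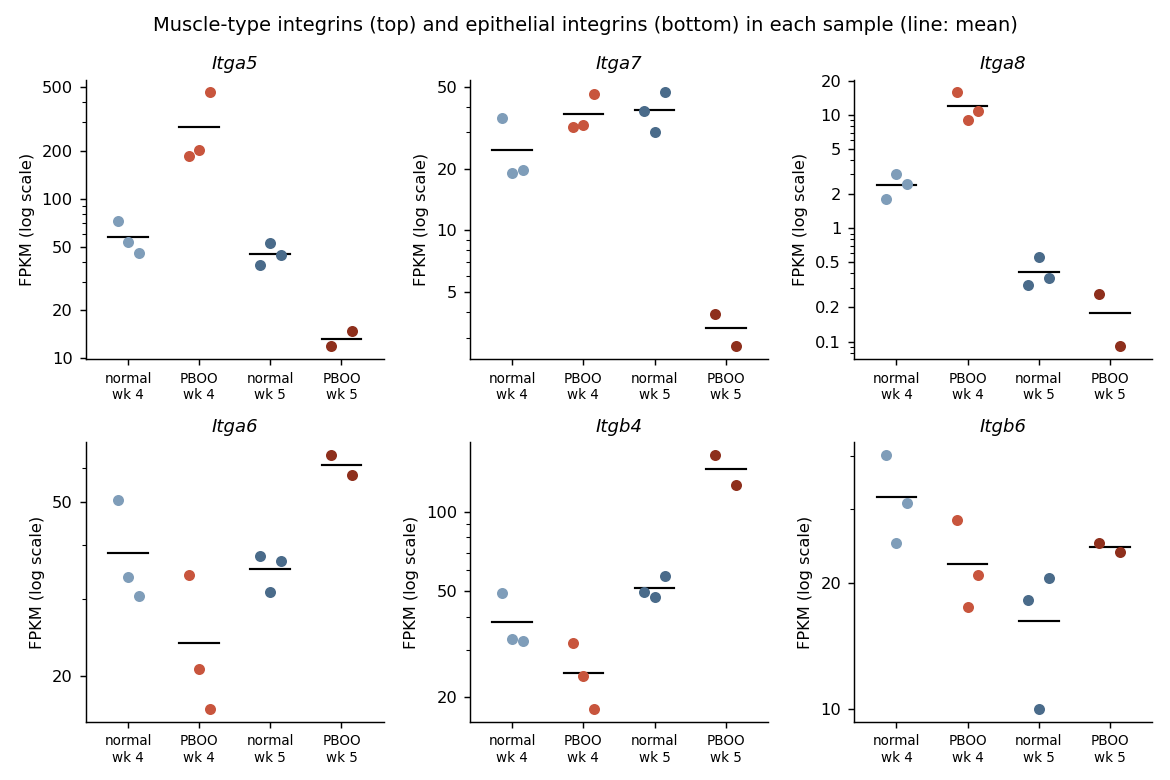
FPKM on a log scale of Itga5, Itga7 and Itga8 (top) and of Itga6, Itgb4 and Itgb6 (bottom), with 1 point per sample in each of the 4 groups and a line at the group mean. Itga5 and Itga8 are highest in PBOO week 4, Itga7 is lowest in PBOO week 5, and Itga6 and Itgb4 are highest in PBOO week 5.

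Of the epithelial integrins, Itga6 and Itgb4 changed the opposite way. Itga6, the alpha chain of the hemidesmosome receptor, was at 50.8, 33.7 and 30.5 FPKM in normal and 34.0, 20.8 and 16.8 FPKM in PBOO bladders at week 4. The groups overlapped, and the log2 fold change was -0.71 ± 0.30 (SE, adjusted p = 0.152). At week 5 it rose from 37.7, 31.1 and 36.7 FPKM to 64.2 and 57.8 FPKM, with no overlap and a log2 fold change of 0.79 ± 0.14 (SE, adjusted p = 0.01).

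Itgb4, its partner chain, measured 49.3, 33.1 and 32.6 FPKM in normal and 32.0, 24.1 and 18.0 FPKM in PBOO bladders at week 4. The highest PBOO sample lay just under the lowest normal sample, and the log2 fold change was -0.64 ± 0.25 (SE, adjusted p = 0.134). At week 5 Itgb4 rose from 49.7, 47.8 and 57.1 FPKM to 163 and 127 FPKM. Both PBOO samples lay well above the highest normal sample, and the log2 fold change was 1.48 ± 0.16 (SE, adjusted p = 0.00238). The week 4 falls of Itga6, Itgb4 and Lamb3 all lost the threshold without normal week 4 replicate 1 and under median-ratio scaling, where 0 of the 30 genes fell.

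Itgb6, an epithelial chain that binds fibronectin and activates latent TGF-beta, passed the test in neither week. It measured 40.3, 25.0 and 31.1 FPKM in normal and 28.2, 17.6 and 20.9 FPKM in PBOO bladders at week 4, with a log2 difference of -0.53 ± 0.23 (SE, adjusted p = 0.165). At week 5 it measured 18.3, 10.02 and 20.5 FPKM in normal and 24.9 and 23.7 FPKM in PBOO bladders, and the groups did not overlap, but the log2 difference was 0.64 ± 0.32 (SE, adjusted p = 0.18).

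To set both groups of integrins side by side within each sample, the mean log2(FPKM + 0.1) of Itga6, Itgb4 and Itgb6 was subtracted from that of Itga5, Itga7 and Itga8. The difference was -1.46, -1.05 and -1.25 in normal bladders and 0.53, 0.92 and 1.73 in PBOO bladders of week 4. At week 5 it was -1.94, -1.28 and -1.83 in normal and -4.62 and -4.81 in PBOO bladders. By this mean the muscle-type integrins were the higher set only in the 3 PBOO samples of week 4, among the 11 samples, and the PBOO week 5 samples had the lowest differences of all. The sign rests in part on Itga8, whose low level draws the muscle-type mean down. It was at 1.82 to 3.02 FPKM in normal week 4 bladders and at 0.0907 to 0.563 FPKM in the week 5 samples. By group, the mean difference was -1.25 ± 0.20 (SD, n = 3) in normal week 4, 1.06 ± 0.61 (SD, n = 3) in PBOO week 4, -1.68 ± 0.36 (SD, n = 3) in normal week 5 and -4.71 ± 0.13 (SD, n = 2) in PBOO week 5. The shift from normal to PBOO was 2.31 at week 4, made of 1.69 in the muscle-type and -0.63 in the epithelial set, and -3.03 at week 5, made of -2.06 and 0.97. The 6 genes were chosen with earlier results of these samples known, so no p-value is given for this difference.

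Markers of the muscle and the urothelium were summed in each sample beside these values. The summed level of 10 smooth muscle markers, among them the contractile genes Actg2, Cnn1 and Acta2, was 25717 to 27883 FPKM in normal and 51368 to 82648 FPKM in PBOO bladders at week 4, and 7 of the 10 rose (median log2 fold change 0.61). At week 5 it was 25009 to 29412 FPKM in normal and 997 to 1867 FPKM in PBOO bladders, and all 10 fell (median -4.34). Urothelial markers, 16 genes in the table, summed to 7339 to 9391 FPKM in normal and 4501 to 5622 FPKM in PBOO bladders at week 4, and 12 of the 14 tested fell, or 6 under median-ratio scaling. At week 5 the urothelial sum was 8489 to 11184 FPKM in normal and 11384 to 12905 FPKM in PBOO bladders, but of 16 markers 5 rose and 7 fell (median log2 fold change -0.11). Of all genes tested, 5.76% rose and 26.2% fell at week 4 (9.01% fell under median-ratio scaling), and 24.6% rose and 18.8% fell at week 5. The share of urothelial markers that rose at week 5 (31.2%) was not far from that of all genes. The basal keratin Krt5 rose at week 5 with a log2 fold change of 3.52, to 1820 ± 1471 FPKM in PBOO bladders (SD, n = 2). Krt14 and Elf3 rose as well, with log2 fold changes of 3.19 (adjusted p = 0.0806) and 2.07 (adjusted p = 0.00196). Krt20 and Upk2, of the superficial layer, fell with log2 fold changes of -6.47 and -2.39, and Upk3b fell with one of -3.17. The part of these shifts in the integrin values was not tested.

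**Figure D2:**
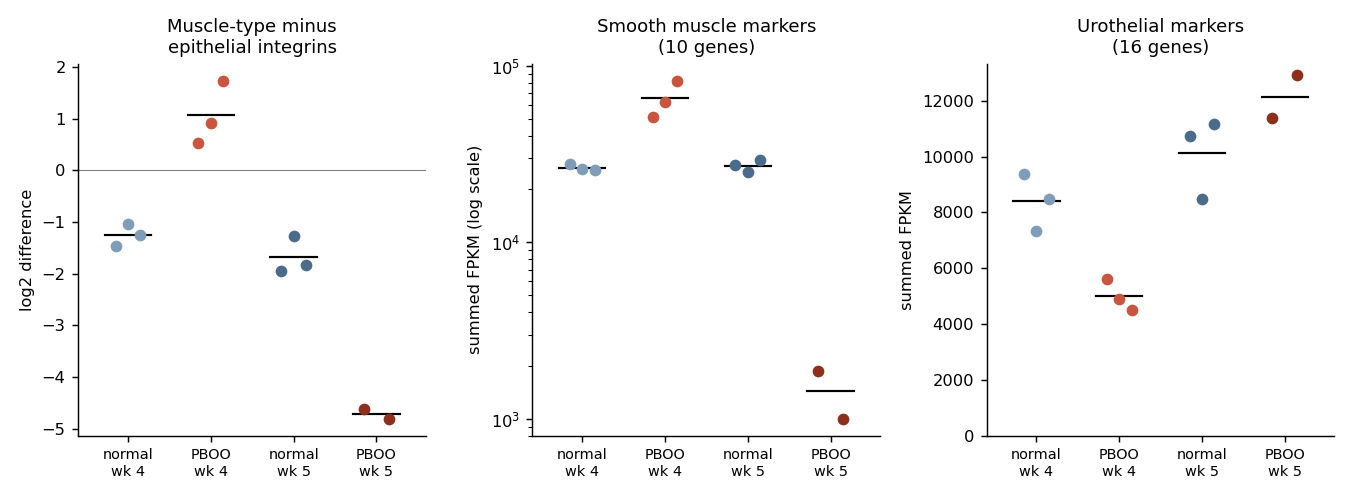
Left, the mean log2(FPKM + 0.1) of the muscle-type minus that of the epithelial integrins. Middle and right, the summed FPKM of 10 smooth muscle markers (log scale) and of 16 urothelial markers (linear scale), with 1 point per sample and a line at the group mean. The PBOO week 4 samples are above 0 in the left panel, and the PBOO week 5 samples have the lowest integrin difference and the lowest smooth muscle sums.

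Of the other integrin subunits, Itgb1 and Itga1 rose at week 4 and fell at week 5. Itgb1, the common partner of most alpha chains, had the highest FPKM of the integrins in every sample except those of PBOO week 5. It was at 375, 331 and 332 FPKM in normal and 538, 724 and 1168 FPKM in PBOO bladders at week 4 (log2 fold change 1.15 ± 0.27, SE, adjusted p = 0.0664). At week 5 it was at 213, 241 and 227 FPKM in normal and 102 and 76.9 FPKM in PBOO bladders (log2 fold change -1.36 ± 0.16, SE, adjusted p = 0.00317). The groups were apart in both weeks, upwards at week 4 and downwards at week 5. Itga1, a collagen receptor chain of smooth muscle, was at 42.1, 44.5 and 40.3 FPKM in normal and 83.5, 108 and 112 FPKM in PBOO bladders at week 4. It rose by 1.24 ± 0.13 on the log2 scale (SE, adjusted p = 0.0478) and fell at week 5 by 2.42 ± 0.37 (SE, adjusted p = 0.0072), from 1.27 to 1.98 FPKM in normal to 0.176 and 0.288 FPKM in PBOO bladders. The normal level of Itga1 thus differed widely between the weeks. Its PBOO mean at week 5, 0.232 FPKM, is under the minimum of 0.5 FPKM.

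Itgb3, which pairs with Itgav and binds vitronectin and fibronectin, did not pass the test at week 4, when PBOO samples lay between 23.8 and 25.0 FPKM and normal samples between 20.0 and 29.4 FPKM. In the week 5 samples it fell from 12.7, 10.8 and 13.8 FPKM to 0.917 and 1.34 FPKM (log2 fold change -3.37 ± 0.22, SE, adjusted p = 0.000521). Itga11, a collagen receptor chain of fibroblasts, had the largest fall at week 5 of the 36 genes tested, from 9.55, 3.28 and 10.01 FPKM to 0.152 and 0.425 FPKM (log2 fold change -4.25 ± 0.60, SE, adjusted p = 0.00543), after a log2 difference of 0.21 ± 0.22 at week 4 that did not pass. Beside it, the summed level of the 8 fibroblast markers was 1542 to 1922 FPKM in normal and 131 to 204 FPKM in PBOO bladders at week 5, and its part in the fall was not tested. Itga9, a tenascin and osteopontin receptor chain, was at 3.98, 4.41 and 3.96 FPKM in normal and 0.657 and 1.17 FPKM in PBOO bladders at week 5 (log2 fold change -2.10 ± 0.28, SE, adjusted p = 0.0046).

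Besides Itga6 and Itgb4, Itgb8 and Itgav rose at week 5. Itgb8, which binds latent TGF-beta, was at 0.521, 0.62 and 0.312 FPKM in normal and 3.33 and 4.40 FPKM in PBOO bladders. This was a log2 fold change of 2.79 ± 0.36 (SE, adjusted p = 0.00408), the largest rise of the 36 genes. The normal mean of 0.484 FPKM is under the minimum of 0.5 FPKM, so Itgb8 was tested through its PBOO values. The size of its rise depends on the 0.1 added to each value. At week 4 its PBOO samples, at 1.86, 1.77 and 0.963 FPKM, were all below the normal ones, at 2.39, 2.06 and 2.14 FPKM, but the difference did not pass the test (adjusted p = 0.243). Itgav, the alpha chain of several vitronectin and fibronectin receptors, rose slightly at week 5, from 10.5, 10.3 and 9.62 FPKM to 12.4 and 13.4 FPKM (log2 fold change 0.34 ± 0.12, SE, adjusted p = 0.09). Itgb5, a partner of Itgav, rose at week 4 by 0.52 ± 0.18 on the log2 scale (SE, adjusted p = 0.114), and at week 5 its PBOO samples, at 49.7 and 23.7 FPKM, lay on either side of the normal ones.

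Itga3, a laminin receptor chain of epithelia, was at 76.1, 56.3 and 85.3 FPKM in normal and 160 and 81.4 FPKM in PBOO bladders at week 5. The groups overlapped, and the log2 difference of 0.68 ± 0.33 (SE, adjusted p = 0.175) did not pass. Itga2, a collagen receptor chain, was between 0.194 and 0.246 FPKM in normal and at 0.343 and 1.01 FPKM in PBOO bladders at week 5, under the minimum mean for a test.

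Laminins are trimers of an alpha, a beta and a gamma chain in basement membranes. Of the 8 chains, 5 were tested at week 4, of which 4 rose and 1 fell, against 5.76% and 26.2% of all genes. At week 5 all 8 were tested, of which 5 fell and 3 rose, against 18.8% and 24.6% of all genes, and the share that rose is not far from that of all genes. Lama4, the alpha chain of vessels and muscle, was at 38.9, 54.7 and 50.1 FPKM in normal and 77.2, 88.1 and 90.4 FPKM in PBOO bladders at week 4 (log2 fold change 0.84 ± 0.15, SE, adjusted p = 0.0538). In the week 5 samples it fell from 21.4, 22.9 and 20.1 FPKM to 3.75 and 8.74 FPKM (log2 fold change -1.88 ± 0.35, SE, adjusted p = 0.0129). Its groups did not overlap in either week, and the 2 PBOO samples of week 5 were further apart than the normal ones.

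Lamc1, the gamma chain shared by most laminins, was at 38.9, 52.7 and 48.8 FPKM in normal and 80.9, 100 and 122 FPKM in PBOO bladders at week 4, and at 28.7, 32.4 and 26.1 FPKM in normal and 17.9 and 20.3 FPKM in PBOO bladders at week 5. The rise, with a log2 fold change of 1.10 ± 0.18 (SE, adjusted p = 0.0534), was larger in size than the fall, with one of -0.60 ± 0.14 (SE, adjusted p = 0.0282). Lamb2, a beta chain of muscle basement membranes, was between 78.4 and 82.0 FPKM in normal and between 93.9 and 115 FPKM in PBOO bladders at week 4. In the week 5 samples it fell from between 84.7 and 89.9 FPKM to 38 and 33.7 FPKM, with the normal samples close to one another and a log2 fold change of -1.27 ± 0.11 (SE, adjusted p = 0.00134). Lama2, the muscle alpha chain, fell at week 5 from 3.11, 3.87 and 2.30 FPKM to 0.28 and 0.627 FPKM. Its log2 fold change was -2.57 ± 0.39 (SE, adjusted p = 0.00719), and its PBOO mean, 0.453 FPKM, is under the minimum of 0.5 FPKM. Lamb1 fell at week 5 from 36.5, 33.8 and 36.5 FPKM to 14.5 and 21.2 FPKM, with a log2 fold change of -1.01 ± 0.18 (SE, adjusted p = 0.012).

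Lama3 and Lamb3, chains of the epithelial laminin bound by integrin alpha 6 beta 4, rose at week 5. Lama3 went from 7.12, 5.40 and 5.77 FPKM to 10.6 and 11.7 FPKM (log2 fold change 0.86 ± 0.17, SE, adjusted p = 0.016). Lamb3 went from 42.4, 32.7 and 44.9 FPKM to 86.9 and 58.2 FPKM (log2 fold change 0.84 ± 0.23, SE, adjusted p = 0.0416), after a fall at week 4 from 31.9, 20.3 and 17.9 FPKM to 18.9, 10.7 and 14.2 FPKM in which the groups overlapped (log2 fold change -0.66 ± 0.28, SE, adjusted p = 0.152). Lama5, a chain of epithelial and vessel basement membranes, was at 20.4, 14.9 and 12.6 FPKM in normal and 20.9, 21.1 and 25.0 FPKM in PBOO bladders at week 4, and at 22.3, 21.3 and 25.0 FPKM in normal and 33.7 and 34.2 FPKM in PBOO bladders at week 5. Its log2 fold change was similar in size in both weeks, at 0.51 ± 0.19 (SE, adjusted p = 0.129) and 0.57 ± 0.12 (SE, adjusted p = 0.0195).

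**Figure D3:**
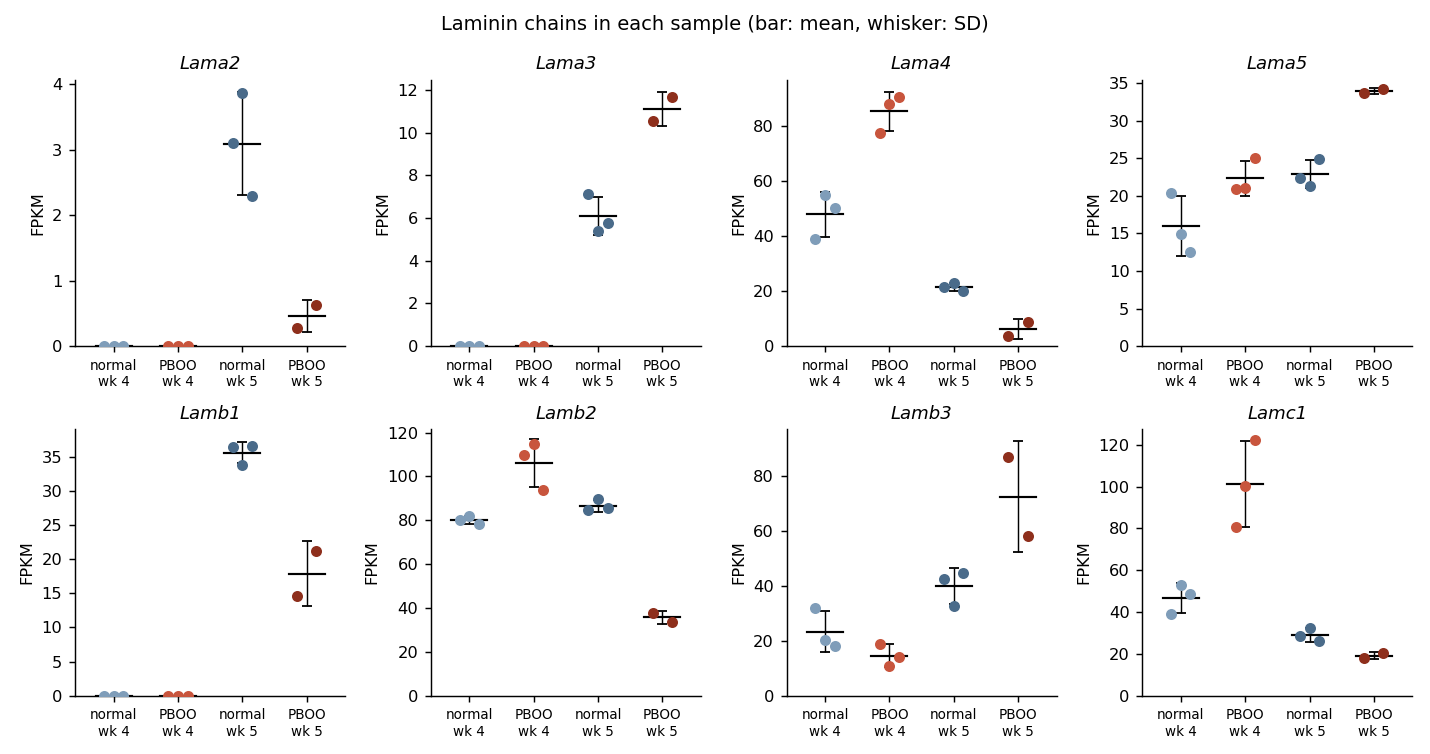
FPKM of the 8 laminin chains on linear axes from 0, with 1 point per sample, a bar at the group mean and a whisker for the SD. Lama4, Lamb2 and Lamc1 are highest in PBOO week 4 and lowest in PBOO week 5, Lama3, Lama5 and Lamb3 are highest in PBOO week 5, and Lama2, Lama3 and Lamb1 are listed at 0 at week 4.

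Of the 8 genes that link integrins to actin, 6 of the 7 tested rose at week 4 (median log2 fold change 0.84), and at week 5, 7 of 8 fell and none rose (median -2.31). Of all genes tested, 5.76% rose and 26.2% fell at week 4, and 24.6% rose and 18.8% fell at week 5. Flnc, the muscle filamin that cross-links actin, was at 72.7, 45 and 49.4 FPKM in normal and 173, 217 and 225 FPKM in PBOO bladders at week 4 (log2 fold change 1.90 ± 0.20, SE, adjusted p = 0.0478). In the week 5 samples it was at 78.2, 101 and 86.0 FPKM in normal and 7.39 and 3.17 FPKM in PBOO bladders, 16.7-fold lower by means (log2 fold change -4.15 ± 0.35, SE, adjusted p = 0.00119). Flnc and Itga7 are also expressed in skeletal muscle, and the summed level of 6 skeletal muscle markers was 177 to 292 FPKM in normal and 362 to 3060 FPKM in PBOO bladders at week 4, and 206 to 231 FPKM in normal and 27.4 to 27.5 FPKM in PBOO bladders at week 5. At week 4, 2 of the 6 (Acta1 and Tnnt3, both named after their values were seen) rose and the other 4 did not pass, with a median log2 fold change of -0.72. At week 5, 3 of the 4 tested fell and 1, Mylpf, rose (log2 fold change 1.49, adjusted p = 0.0104). The part of these markers in the changes of Flnc and Itga7 was not tested. Flna, the widely expressed filamin, was at 928, 750 and 666 FPKM in normal and 1458, 1486 and 1239 FPKM in PBOO bladders at week 4 (log2 fold change 0.84 ± 0.16, SE, adjusted p = 0.0541). At week 5 Flna fell from 828, 809 and 911 FPKM to 64.6 and 66.7 FPKM, 12.9-fold by means, with both groups tight (log2 fold change -3.69 ± 0.13, SE, adjusted p = 0.000178).

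Tns1, a tensin that binds the integrin tail and actin, was at 159, 155 and 128 FPKM in normal and 253, 258 and 208 FPKM in PBOO bladders at week 4, and at 148, 231 and 202 FPKM in normal and 16.4 and 10.8 FPKM in PBOO bladders at week 5, a 14.3-fold difference of means at week 5. Vcl, vinculin, rose from 213, 133 and 128 FPKM to 261, 284 and 318 FPKM at week 4 (adjusted p = 0.0657) and fell from 97.2, 103 and 107 FPKM to 25.7 and 17.0 FPKM at week 5 (adjusted p = 0.00115). Actn1, an alpha-actinin of focal adhesions and stress fibres, rose from 228, 135 and 124 FPKM to 329, 354 and 421 FPKM at week 4 (adjusted p = 0.0541) and fell from 192, 202 and 237 FPKM to 38.4 and 44.6 FPKM at week 5 (adjusted p = 0.000482). In each of these 3 genes the groups were apart in both weeks. Actn4, its close relative found in many cell types, was between 121 and 230 FPKM in normal and between 140 and 170 FPKM in PBOO bladders at week 4, and did not pass in either week (log2 difference 0.02 ± 0.25 and 0.07 ± 0.28, SE).

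Tln1, the talin that activates integrins by binding the beta tail, measured 85.8, 53.2 and 48.4 FPKM in normal and 104, 92.9 and 90.9 FPKM in PBOO bladders at week 4 (log2 fold change 0.66 ± 0.21, SE, adjusted p = 0.102). In bladders of week 5 it fell from 85.2, 84.5 and 97.1 FPKM to 35.0 and 34.3 FPKM (log2 fold change -1.36 ± 0.12, SE, adjusted p = 0.00125). The second talin, Tln2, fell at week 5 from 5.82, 4.06 and 4.75 FPKM to 1.55 and 1.06 FPKM (log2 fold change -1.83 ± 0.26, SE, adjusted p = 0.00557). Both talins were therefore lower at week 5, and Tln1 stayed the more abundant in FPKM in all 5 samples.

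Of the 6 signalling adaptors, 4 rose and none fell at week 4, against 5.76% and 26.2% of all genes. At week 5, 3 fell and 1 rose, against 18.8% and 24.6% of all genes, so the share that rose (16.7%) was under that of all genes. Ilk and Parva, the kinase-like scaffold and the parvin that sit together at the beta 1 tail, rose at week 4 and fell at week 5. Ilk went from 203, 208 and 203 FPKM to 324, 390 and 432 FPKM at week 4 (log2 fold change 0.89 ± 0.13, SE, adjusted p = 0.0483), and Parva from 93.2, 87.5 and 85.9 FPKM to 162, 137 and 139 FPKM (log2 fold change 0.71 ± 0.10, SE, adjusted p = 0.0485). At week 5 Ilk fell from 120, 110 and 129 FPKM to 48.8 and 51.5 FPKM and Parva from 49.6, 55.8 and 60.5 FPKM to 12.4 and 12.7 FPKM. Normal samples of both genes were close to one another, and PBOO samples lay outside their range in both weeks. Zyx, zyxin, a tension-sensitive LIM protein, rose at week 4 with a log2 fold change of 0.83 ± 0.20 (SE, adjusted p = 0.0709) and fell at week 5 with one of -1.73 ± 0.15 (SE, adjusted p = 0.00121).

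Ptk2, focal adhesion kinase, rose at week 4 from 21.0, 22.9 and 22.2 FPKM to 25.8, 32.2 and 51.6 FPKM (log2 fold change 0.66 ± 0.24, SE, adjusted p = 0.121). In bladders of week 5 it was between 13.6 and 15.8 FPKM in normal and at 14.6 and 11.4 FPKM in PBOO bladders, where the groups overlapped and the log2 difference of -0.19 ± 0.16 (SE, adjusted p = 0.391) did not pass. Pxn, paxillin, a scaffold for the kinase, did not pass at week 4 (log2 difference 0.02 ± 0.10, SE). After median-ratio or quantile scaling it did pass as a rise in that week (0.27 and 0.20). At week 5 Pxn rose from 27.0, 30.3 and 29.7 FPKM to 61.2 and 39.6 FPKM (log2 fold change 0.76 ± 0.20, SE, adjusted p = 0.0394). Vasp, which promotes actin filament growth, lay between 66.5 and 103 FPKM in all 11 samples and passed in neither week.

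**Figure D4:**
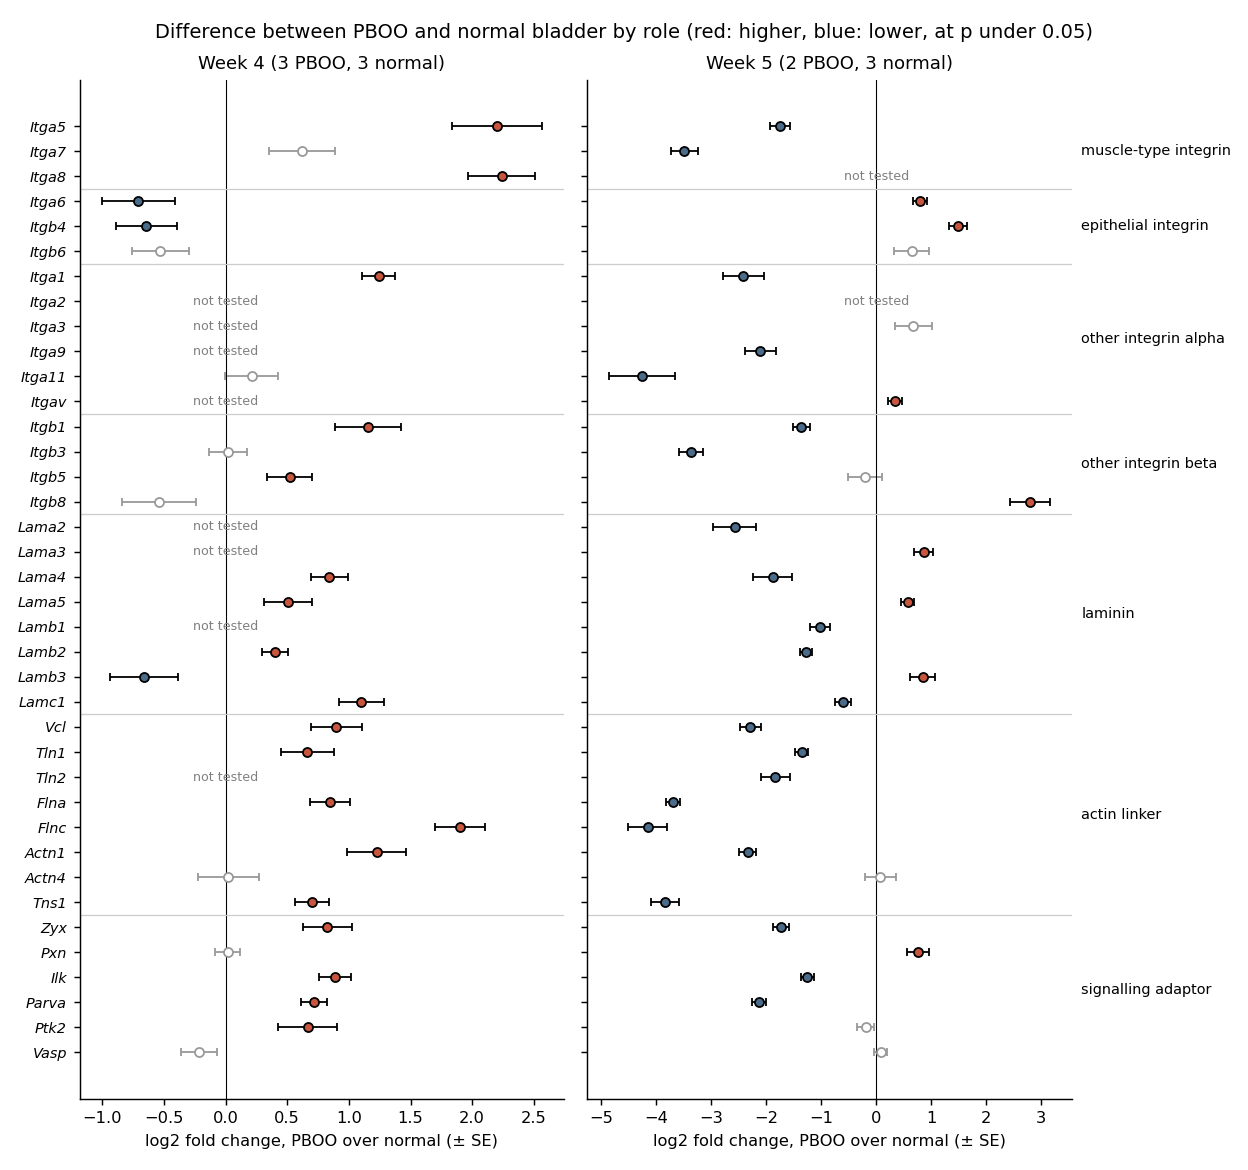
Log2 fold change of PBOO over normal at week 4 (left) and week 5 (right), fitted on log2(FPKM + 0.1) with bars for the SE, ordered by role. Red marks genes higher and blue genes lower at an unadjusted p under 0.05, and grey those that did not pass. The actin linkers lie mostly right of 0 at week 4 and left of 0 at week 5, and Itga6, Itgb4 and Lamb3 lie the other way. Itgb8, Itgb6 and Vasp, which did not pass at week 4, also lie left of 0 then and right of 0 at week 5.

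Promoter sequences were compared because 15 of the genes rose and then fell together. Letters from 250 bases before to 50 bases after each gene start were taken from a table of RefSeq promoters (assembly GRCr8), in which 29 of the 38 genes were matched. The genes not matched in that table were Itga6, Itga7, Itgb3, Itgb4, Lamb2, Actn4, Tns1, Parva and Ptk2. Motifs were chosen with the values known, and 4 were searched on both strands: CATTCC (the core bound by TEAD factors), the CArG box (bound by serum response factor), TGANTCA (AP-1 type) and AACCNGTT (grainyhead type). CATTCC was present in 8 of the 29 promoters (27.6%), against 14.2% of 33469 rat promoters of the same length. Of these 8, 6 belong to the 12 genes with a promoter entry that rose at week 4 and fell at week 5, and they are shown with the motif in capitals, as CATTCC or, on the opposite strand, GGAATG.
Flna: ggattgtgggagCATTCCaacgggaggggc
Flnc: cgggccgggcggCATTCCtgggaggccggc
Zyx: tcaggaagttagCATTCCcctagagcgctt
Lamc1: ccctcttgctccCATTCCgcccatctcgct
Vcl: gcccctcccttgGGAATGggggcggggcgg
Itgb1: acgcggcgcggaGGAATGcgtttccggagg
These windows lie at chrX:157182400-157182429 (minus strand) for Flna, chr4:58999414-58999443 (plus) for Flnc, chr4:72203783-72203812 (plus) for Zyx, chr13:68052182-68052211 (minus) for Lamc1, chr15:3404950-3404979 (minus) for Vcl and chr19:73602119-73602148 (plus) for Itgb1. The motifs begin 74, 121, 205, 213, 167 and 146 bases upstream of the gene start in that order. The other 2 promoters with CATTCC were those of Itga3, which did not pass at week 5, and Itgb8, which rose then.

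The CArG box was found in 2 of the 29 promoters (6.9%), against 1.64% of all rat promoters. They were those of Lama2, the muscle laminin chain that fell at week 5, and of Itgb6, the epithelial chain that passed in neither week, and are shown because they belong to opposite sides of the muscle and epithelial division, with the box in capitals.
Lama2: aaccaaggacCCTTTAAAGGcccaagcctg
Itgb6: cacctgacttCCTTATAAGGcgaatgagga
They lie at chr1:19492021-19492050 (plus strand) and chr3:65530409-65530438 (minus strand), beginning 115 and 95 bases upstream of the gene start. TGANTCA was found in 1 of the 29 (3.45%, against 7.33% of all), that of Lama3, and AACCNGTT in 0 (against 2.1%). A match gives the letters of these windows alone.

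The difference between the weeks was tested directly, as the effect of PBOO at week 5 minus that at week 4, for the 30 genes above 0 in both weeks. The effect was lower at week 5 for 20 genes and higher for 6, against 15.7% and 34.6% of 11296 genes tested, and 25 of the 26 were under 0.05 after adjustment, all but Ptk2. After adjustment 19 were lower and 6 higher, against 13.5% and 26.5% of all genes. The share that was higher (20%) was thus under that of all genes. Flnc had the largest difference, at -6.05 ± 0.42 (SE, adjusted p = 6.98e-06), followed by Tns1 at -4.54 ± 0.30 (SE, adjusted p = 4.81e-06) and Flna at -4.53 ± 0.21 (SE, adjusted p = 1.6e-06). In the other direction, Itgb8 differed by 3.33 ± 0.47 (SE, adjusted p = 0.000548), Itgb4 by 2.13 ± 0.33 (SE, adjusted p = 0.00107) and Itga6 by 1.50 ± 0.38 (SE, adjusted p = 0.0114). Itgb6, which passed in neither week alone, differed between them by 1.17 ± 0.42 (SE, adjusted p = 0.0468), a call lost under median-ratio scaling. For Itga8 the week 5 values behind its difference of -3.17 ± 0.51 (SE, adjusted p = 0.00125) lay between 0.0907 and 0.563 FPKM. Lama5 did not pass (0.07 ± 0.25, SE, adjusted p = 0.851). Week 4 and week 5 samples also differ in which genes are listed at 0 and in how their columns are named. Time after surgery and the processing of the weeks therefore cannot be told apart.

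**Figure D5:**
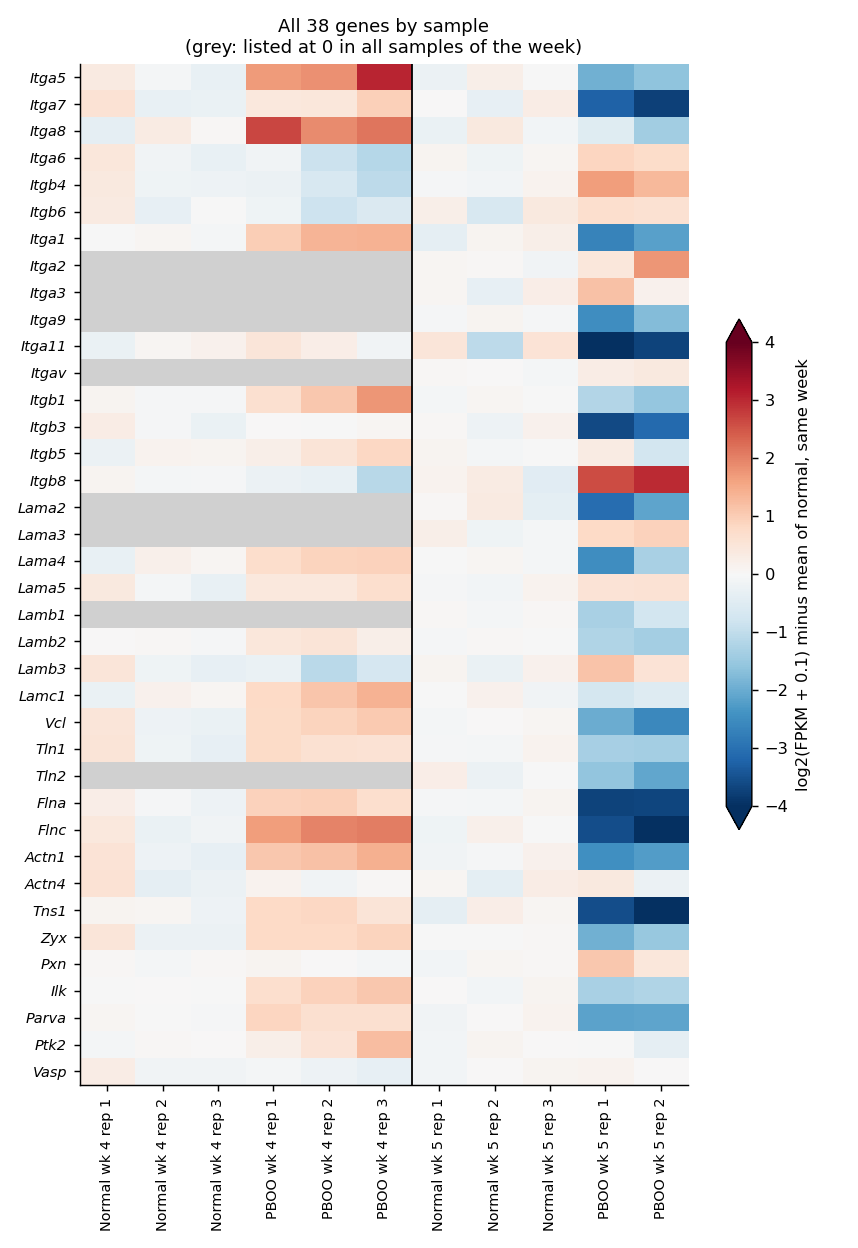
Level of all 38 genes in each of the 11 samples, as log2(FPKM + 0.1) minus the mean of the normal samples of the same week, on a colour scale from -4 to 4, with genes listed at 0 throughout a week in grey. Most rows are red in the PBOO week 4 columns and blue in the PBOO week 5 columns, and Itga6, Itgb4, Itgb6, Itgb8 and Lamb3 show the reverse.

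Other genes of the adhesion machinery were counted from lists that share no gene with the 38. Of 48 other focal adhesion genes tested at week 4, 14 rose and 3 fell (median log2 fold change 0.03), against 5.76% and 26.2% of all genes. At week 5, of 49 tested, 10 rose and 20 fell (median -0.28), against 24.6% and 18.8% of all genes, so the share that rose was near that of all genes. Synpo2, which binds actin and is also among the smooth muscle markers summed above, and Lims2, which binds Ilk, both fell at week 5, with log2 fold changes of -5.70 and -3.98. Lpp rose in both weeks, with the largest rise of the list at week 5 (log2 fold change 4.42). Its normal mean was 23.0 FPKM at week 4 and 0.112 FPKM at week 5. The week 5 mean is under the minimum of 0.5 FPKM, so Lpp was tested in that week through its PBOO values. Pdlim1 had the largest fall at week 4 (log2 fold change -0.91, adjusted p = 0.0543). Tes, a partner of zyxin, and Enah, a relative of VASP, had the largest rises at week 4, with log2 fold changes of 1.42 (adjusted p = 0.0553) and 1.33 (adjusted p = 0.0878). Of the 14 linkers and adaptors described above, which were chosen with results of these samples known, 10 of 13 tested rose at week 4 and 10 of 14 fell at week 5.

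Among matrix ligands of integrins, 6 of 15 rose at week 4 and none fell, against 5.76% and 26.2% of all genes, and at week 5, 16 of 19 fell and 2 rose, against 18.8% and 24.6%. Fn1, fibronectin, the ligand of Itga5 and Itga8, rose at week 4 from 47.7 ± 9.50 FPKM to 313 ± 147 FPKM (SD, n = 3 and 3, log2 fold change 2.61, adjusted p = 0.0483). The collagens Col1a1, Col1a2 and Col3a1 fell at week 5 with log2 fold changes between -4.13 and -3.56. Of 14 other laminin and basement membrane genes tested at week 4, 3 rose and 3 fell (median log2 fold change 0.07), a share of falls near that of all genes. At week 5, 2 of 16 rose and 9 fell (median -1.04). Col4a1, a type IV collagen chain, rose at week 4 (log2 fold change 1.70, adjusted p = 0.0483), and at week 5 the laminin-binding nidogen Nid1 fell (log2 fold change -2.27, adjusted p = 0.0072). Agrn instead fell at week 4 (log2 fold change -0.51, adjusted p = 0.0878) and rose at week 5 (0.68, adjusted p = 0.0393). Col18a1 rose in both weeks (0.79, adjusted p = 0.0521, and 1.12, adjusted p = 0.0966). Col17a1, a hemidesmosome collagen, rose at week 5 (log2 fold change 0.80, adjusted p = 0.034), and Dst, which links hemidesmosomes to keratin, fell (log2 fold change -0.84, adjusted p = 0.014).

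Of integrin subunits outside the 38, 6 of 9 rose at week 5 and 1 fell, against 24.6% and 18.8% of all genes. Itgax, Itgam and Itgb2, which are chains of leukocyte integrins, had the largest rises, with log2 fold changes of 2.65, 2.13 and 2.08. Beside them, 10 leukocyte markers summed to 43.8 to 106 FPKM in normal and to 228 and 800 FPKM in PBOO bladders at week 5. Of the 9 tested, 8 rose. Itgam and Itgb2 are themselves among the 10 markers, so the sum and the count are not independent of these genes. The part of leukocytes in the rises was not tested. Itgbl1, an integrin beta-like protein, was at 4.37, 23.1 and 22.6 FPKM in normal and 31.5, 37.1 and 48.9 FPKM in PBOO bladders at week 4, with normal replicate 1 far below the other normal samples. It rose at week 4 (log2 fold change 1.54, adjusted p = 0.142) and fell at week 5 (log2 fold change -4.33). At week 5 its PBOO mean was 0.131 FPKM, under the minimum of 0.5 FPKM.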

How the data were processed

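RNA of 11 rat bladder samples was analysed as 4 groups taken from the sample labels. The authors trimmed reads with SeqPrep and Sickle, mapped them with HISAT2, assembled them with StringTie and deposited FPKM values for 18507 genes. The submitters' processing notes also name bcl2fastq 2.0 and the build mm10, a mouse build. The annotation and strand setting are not given in the sources used here, and reads of overlapping genes cannot be told apart. Values were taken as deposited. Each week was fitted in R 4.3.3 with limma 3.58.1 (lmFit, eBayes with a trend) on log2(FPKM + 0.1) for genes averaging 0.5 FPKM or more, and the difference between weeks on all 11 samples. Fold changes on this scale understate changes of low genes. Adjusted p-values are Benjamini-Hochberg over all genes tested in each comparison, and all tests are two-sided. The steps were tested on simulated data. Genes and lists were chosen with earlier results of these data known, and all 38 genes may be named, with up to 3 genes per direction and week of each other list (largest fold among genes under 0.05, at least 1 FPKM on average and groups apart). Results for some genes of these lists are not reported here. Tables came from pandas 2.3.3 under Python 3.11.15, with numpy 2.4.6, and plots from matplotlib 3.10.9. Alternatives were another pseudocount, no filter, no trend, other scalings, a joint fit, a replicate block, other thresholds and leaving out each sample.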

Additional observations from a re-analysis of the deposited data

Results flagged for a closer look

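The effect of PBOO differed between week 4 and week 5, by the interaction test in limma over all 11 samples at an adjusted p under 0.05, for 25 of the 30 genes above 0 in both weeks. Of all genes tested, 26.5% were higher and 13.5% lower at week 5 by the same threshold. The values are week 5 minus week 4 differences of log2 fold changes. Among the actin linkers and adaptors they were -6.05 for Flnc, -4.54 for Tns1, -4.53 for Flna, -3.56 for Actn1, -3.19 for Vcl, -2.84 for Parva, -2.55 for Zyx, -2.14 for Ilk, -2.02 for Tln1 and 0.75 for Pxn. Among the integrins they were -4.46 for Itga11, -4.11 for Itga7, -3.96 for Itga5, -3.66 for Itga1, -3.38 for Itgb3, -3.17 for Itga8, -2.51 for Itgb1, 1.17 for Itgb6, 1.50 for Itga6, 2.13 for Itgb4 and 3.33 for Itgb8. Among the laminin chains they were -2.72 for Lama4, -1.70 for Lamc1, -1.67 for Lamb2 and 1.51 for Lamb3. Itga8 was too low for a test at week 5 alone (0.0907 to 0.563 FPKM) and was included here through its week 4 values. The week 5 means of Itga1 and Itga11 in PBOO and of Itgb8 in normal bladders were also under 0.5 FPKM. No group has 4 or more samples, so single samples were not tested for standing apart.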

How the results depend on the processing

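Of the genes that changed, 15 of 19 week 4 rises kept their call in all 13 refits (Itgb5, Lama5, Tln1 and Ptk2 did not), 0 of 3 week 4 falls did, 22 of 22 week 5 falls and 6 of 8 week 5 rises (not Itgav and Lamb3) did in 12 refits, and 19 of 20 lower (not Ptk2) and 4 of 6 higher (not Itgb6 and Pxn) differences between weeks did in 17. An adjusted p left 5 rises and 0 falls at week 4, and a 2-fold minimum left 7 and 0 at week 4 and 2 rises at week 5. The 3 week 4 falls came to 0 without the trend, with median ratios, with quantiles, and without normal replicate 1, PBOO replicate 2 or PBOO replicate 3. With median ratios and with quantiles, Itga7, Itga11 and Pxn passed as further rises at week 4 (adjusted p 0.162 to 0.222). With 1 sample left out, week 4 rises ranged from 16 to 19 and falls from 0 to 4, week 5 rises from 7 to 9 and falls from 22 to 24, and genes higher and lower between weeks from 5 to 6 and from 19 to 21. The muscle-type minus epithelial shift ranged from 1.98 to 2.58 at week 4 and from -3.16 to -2.83 at week 5, and was -2.66 at week 5 with a pseudocount of 1. Its week 5 value was not computed with quantiles. Where leaving out 1 PBOO week 5 sample leaves a lone sample, it is assumed to vary like the normal ones.

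Replicate numbers repeat across groups, and same-numbered samples did not deviate together throughout (correlations 0.154, -0.024 and 0.232 at week 4, -0.001 and 0.124 at week 5). With the replicate block, 19 genes rose and 4 fell at week 4, 9 rose and 22 fell at week 5, and 6 were higher and 21 lower between weeks.

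None of the values that had passed the test changed sign. Those that did, in genes that had not passed, were Actn4 between weeks (-0.24 with median ratios, -0.16 with quantiles, and from -0.27 to 0.37 with a sample left out), at week 4 (from -0.15 to 0.31 with a sample left out) and at week 5 (-0.032, -0.038, and from -0.25 to 0.39), Lama5 between weeks (-0.22, -0.28, and from -0.12 to 0.22), Itgb3 and Pxn at week 4 (from -0.11 to 0.17 and from -0.026 to 0.063 with a sample left out), Itgb5 at week 5 (from -0.74 to 0.33, the latter without PBOO replicate 2), and Vasp (0.038 at week 4 with median ratios, and -0.024 and -0.041 at week 5 with median ratios and quantiles). The cause was not tested. Without counts, no limit from depth can be given.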
